A study of Mus musculus with 27 samples.

Results

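The Hox genes, which encode the transcription factors of the body's positional code, were followed through the aorta, isolated aortic fibroblasts and single aortic cells of angiotensin II-infused mice. Members were all gene symbols made of Hox, a cluster letter from a to d and a number from 1 to 13 with nothing after it, a rule that used no measured value. It found 39 genes of the 42375 symbols in each bulk count table, 11 in HoxA, 10 in HoxB, 9 in HoxC and 9 in HoxD, and the same 39 symbols among the 32285 genes of each single-cell matrix. Antisense transcripts and microRNA genes that lie within the clusters are not members.

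The series concerns a KLF10 and IL-9 axis in CD4+ T cells and perivascular fibrosis, and holds 27 samples in 10 groups of C57BL/6 mice, all infused with angiotensin II (Ang II, a peptide that raises blood pressure) for 28 days. Bulk RNA-seq covered non-stripped aorta (3 TKO and 3 Cre libraries), stripped aorta (2 TKO and 4 Cre), fibroblasts isolated from digested aortas (3 TKO and 3 Cre) and non-stripped aorta of TKO mice given a monoclonal antibody to IL-9 (2 libraries) or control IgG (3 libraries). Droplet-based 3′ single-cell RNA-seq covered digested non-stripped aorta (2 TKO and 2 Cre libraries). Cre and TKO are the genotype names in the labels, which name neither the promoter behind Cre nor the altered allele. What stripping removed, and whether the libraries of a group came from separate animals, is not stated either, so p-values measure only the spread between these libraries. The titles of the stripped samples call them nonstripped, whereas their other labels call them stripped, and those labels were followed. All 5 libraries of the antibody experiment carry the TKO genotype, so both of its groups share that alteration and the Ang II infusion.

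Total counts were between 17179257 and 38633457 per bulk library, and the 4 single-cell libraries kept 12283 and 4646 TKO cells and 10369 and 2440 Cre cells. Klf10, the gene named in the series title, had 822, 696 and 0 counts in the 3 TKO libraries of non-stripped aorta, against 1049, 943 and 1400 in Cre, so the replicates labelled TKO did not share one level, and since the labels name no altered gene, this checks no label. Isolated fibroblasts had summed CPM (counts scaled to library size) of the 8 fibroblast markers between 3082 and 5887 and of the 7 sympathetic neuron markers between 0.712 and 1.11. They also had smooth muscle markers between 1244 and 2533 CPM, so the isolated cells were not free of contractile genes. Their range of summed fibroblast markers overlapped with that of the IgG libraries of non-stripped aorta (4273 to 8475 CPM). It lay above the TKO and Cre libraries of non-stripped aorta (1191 to 2016 CPM) and far below those of stripped aorta (26395 to 43700 CPM). These tables were scaled separately. Because the order differed between the aorta preparations, the marker sums do not show that fibroblasts were enriched over aorta tissue in general.

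Hox proteins bind DNA through a homeodomain and specify the identity of body segments in the embryo. Genes at the low-numbered end of a cluster are switched on earlier and nearer the head, and genes at the high-numbered end later and nearer the tail. Adult connective tissue and vessel wall cells retain much of the pattern of the body level they came from. Genes numbered 1 to 3 are called anterior here (8 members), those numbered 4 to 8 central (15) and those numbered 9 to 13 posterior (16).

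The homeoboxes of 6 members on which the comparisons turn are shown to let central and posterior members be set side by side, in the reading direction of each gene and from GENCODE vM21 transcripts of the mouse build GRCm38. Capitals mark the 33 bases that code for the recognition helix, the part of the homeodomain that reads the DNA, within 180 bases of homeobox. Hoxa4 lies on the minus strand at chr6:52189671-52191753 and Hoxa10 on the minus strand at chr6:52231197-52240854. Hoxc10, Hoxc9, Hoxc8 and Hoxc4 follow each other on the plus strand at chr15:102966796-102971893, chr15:102976439-102985099, chr15:102990607-102994111 and chr15:103018934-103036852.
Hoxa4: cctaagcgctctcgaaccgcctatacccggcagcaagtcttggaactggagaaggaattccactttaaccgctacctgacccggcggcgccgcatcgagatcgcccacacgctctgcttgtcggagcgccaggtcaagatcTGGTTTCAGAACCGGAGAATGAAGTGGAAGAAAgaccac
Hoxc4: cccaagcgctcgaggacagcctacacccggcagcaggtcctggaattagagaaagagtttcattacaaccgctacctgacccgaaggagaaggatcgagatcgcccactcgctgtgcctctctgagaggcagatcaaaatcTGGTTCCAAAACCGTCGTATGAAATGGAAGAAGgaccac
Hoxc8: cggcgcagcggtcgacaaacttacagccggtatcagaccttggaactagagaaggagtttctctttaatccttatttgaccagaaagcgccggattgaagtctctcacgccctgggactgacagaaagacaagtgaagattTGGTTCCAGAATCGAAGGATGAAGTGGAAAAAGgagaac
Hoxc9: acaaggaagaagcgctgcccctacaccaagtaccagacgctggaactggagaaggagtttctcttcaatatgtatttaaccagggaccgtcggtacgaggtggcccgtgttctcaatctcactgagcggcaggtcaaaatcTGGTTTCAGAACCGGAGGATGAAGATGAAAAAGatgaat
Hoxc10: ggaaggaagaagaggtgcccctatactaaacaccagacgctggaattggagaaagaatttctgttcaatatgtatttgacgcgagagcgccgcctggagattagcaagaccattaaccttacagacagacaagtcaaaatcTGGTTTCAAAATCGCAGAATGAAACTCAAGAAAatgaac
Hoxa10: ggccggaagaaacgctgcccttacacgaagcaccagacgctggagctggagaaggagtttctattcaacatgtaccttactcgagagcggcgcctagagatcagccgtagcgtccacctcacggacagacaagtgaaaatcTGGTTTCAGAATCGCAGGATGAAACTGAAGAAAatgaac

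Hoxc10 and Hoxa10, which carry the same number in different clusters, were the most alike of the 15 pairs, with 145 identical bases (80.6%) and 30 of the 33 capitals in common. Hoxa4 and Hoxc4 came next with 142 identical bases (78.9%). Neighbours within HoxC were less alike, with 71.7% identity between Hoxc9 and Hoxc10, and the lowest identity, 58.3%, was between Hoxc4 and Hoxa10.

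Between 31 and 38 of the 39 members had at least 1 count in a bulk table, 31 in non-stripped aorta, 34 in stripped aorta, 38 in isolated fibroblasts and 32 in the antibody experiment. The members without a count in a table were all posterior, apart from Hoxd1 in stripped aorta. Hoxd12 had no count in any bulk library, and Hoxa11, Hoxc11 and Hoxd11 had none in non-stripped aorta but were counted in fibroblasts. A mean of at least 1 CPM was reached by 23 members in non-stripped aorta, 22 in stripped aorta, 27 in fibroblasts and 25 in the antibody experiment. The highest-numbered such members in fibroblasts were Hoxa11, Hoxb9, Hoxc11 and Hoxd9, those of non-stripped aorta Hoxa9, Hoxb8, Hoxc9 and Hoxd9, and those of stripped aorta Hoxa7, Hoxb9, Hoxc9 and Hoxd9. In the antibody experiment they were Hoxa9, Hoxb9, Hoxc10 and Hoxd9.

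Levels of different genes were compared per length, as TPM (counts over exon length, scaled to the same sum in every library). Tables were scaled separately and are set side by side without a test. Hoxa5, known for its part in lung and respiratory muscle development, had the highest mean TPM in every table, 70.7 ± 11.5 in isolated fibroblasts (SD, n = 6), 39.4 ± 8.37 in non-stripped aorta (n = 6), 36.5 ± 11.5 in stripped aorta (n = 6) and 35.5 ± 8.23 in the antibody experiment (n = 5). It led in every library of fibroblasts and non-stripped aorta, but not in all the others. In stripped Cre replicates 3 and 4 Hoxb4 (29.4 and 33.5 TPM) lay above Hoxa5 (20.6 and 27.9 TPM). With anti-IL-9, Hoxc8 had 41.5 and 32.0 TPM and Hoxa5 21.1 and 39.1 TPM, so Hoxc8 had the higher mean there. In fibroblasts Hoxb6 (27.8 ± 4.36 TPM) and Hoxc6 (26.5 ± 6.24 TPM) came next and did not differ beyond their spread. In non-stripped aorta Hoxc8 (20.6 ± 4.64 TPM) and Hoxa7 (19.0 ± 2.95 TPM) likewise overlapped. Stripped aorta had another order, with Hoxb4 (33.4 ± 5.55 TPM), a gene known for its role in blood stem cells, and Hoxa2 (25.2 ± 3.16 TPM), a hindbrain and pharyngeal arch gene, after Hoxa5.

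The highest-numbered members past 1 CPM were at low levels in non-stripped aorta, and in stripped aorta Hoxa7 was not. In non-stripped aorta Hoxa9 averaged 1.566 ± 0.561 TPM, Hoxb8 4.04 ± 0.960 TPM, Hoxc9 1.690 ± 0.643 TPM and Hoxd9 1.275 ± 0.285 TPM (SD, n = 6). In stripped aorta Hoxa7 averaged 22.3 ± 12.6 TPM and Hoxd9 2.42 ± 0.956 TPM (n = 6), and the SDs of Hoxb9 (2.69 ± 3.22 TPM) and Hoxc9 (1.475 ± 2.36 TPM) exceeded their means. Hoxd9 had 1.987 ± 0.487 TPM in fibroblasts (n = 6) and 2.21 ± 0.845 TPM in the antibody experiment (n = 5), and single libraries lay between 0.897 TPM (Cre replicate 2 of non-stripped aorta) and 4.11 TPM (TKO replicate 2 of stripped aorta).

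Summed over the 39 members, Hox transcripts reached 434 ± 39.3 TPM in TKO fibroblasts and 392 ± 23.1 TPM in Cre fibroblasts (SD, n = 3 each). The sum was 183 ± 34.9 TPM in TKO and 194 ± 36.9 TPM in Cre non-stripped aorta (n = 3 each), and 287 ± 121 TPM in TKO (n = 2) and 286 ± 82.7 TPM in Cre (n = 4) stripped aorta. Every fibroblast library (374 to 479 TPM) was above every non-stripped library (144 to 235 TPM). The stripped libraries (202 to 406.8 TPM) overlapped with those of fibroblasts, whose group means alone were higher. In the aorta preparations the genotype means differed by less than 1 SD.

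The share of posterior members in the summed Hox TPM separated the tissues further. It was 15.2%, 13.5% and 11.2% in TKO fibroblasts, against 16.3%, 20.9% and 15.3% in Cre fibroblasts. It was 4.52%, 3.21% and 4.64% in TKO non-stripped aorta, against 3.21%, 2.84% and 2.89% in Cre non-stripped aorta, and 1.26% and 2.77% in TKO stripped aorta, against 0.964%, 4.74%, 4.21% and 2.23% in Cre stripped aorta. Every fibroblast library was above every aorta library of the 3 genotype tables. The part of the cell make-up of the preparations in this contrast, and in that of summed TPM, was not tested. Among posterior members of fibroblasts, Hoxc10 had 18.3 ± 4.17 TPM, Hoxb9 12.9 ± 1.02 TPM, Hoxc9 11.1 TPM, Hoxa10 5.73 ± 1.13 TPM, Hoxa11 3.60 ± 1.68 TPM and Hoxc11 2.96 ± 1.24 TPM. Anterior members took 18.7% and 27.4% of Hox TPM in TKO stripped aorta, against 25.9%, 16.4%, 26.1% and 28.0% in Cre, and between 5.24% and 7.57% in the libraries of non-stripped aorta. The heat map of TPM shows both features.

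**Figure D1:**
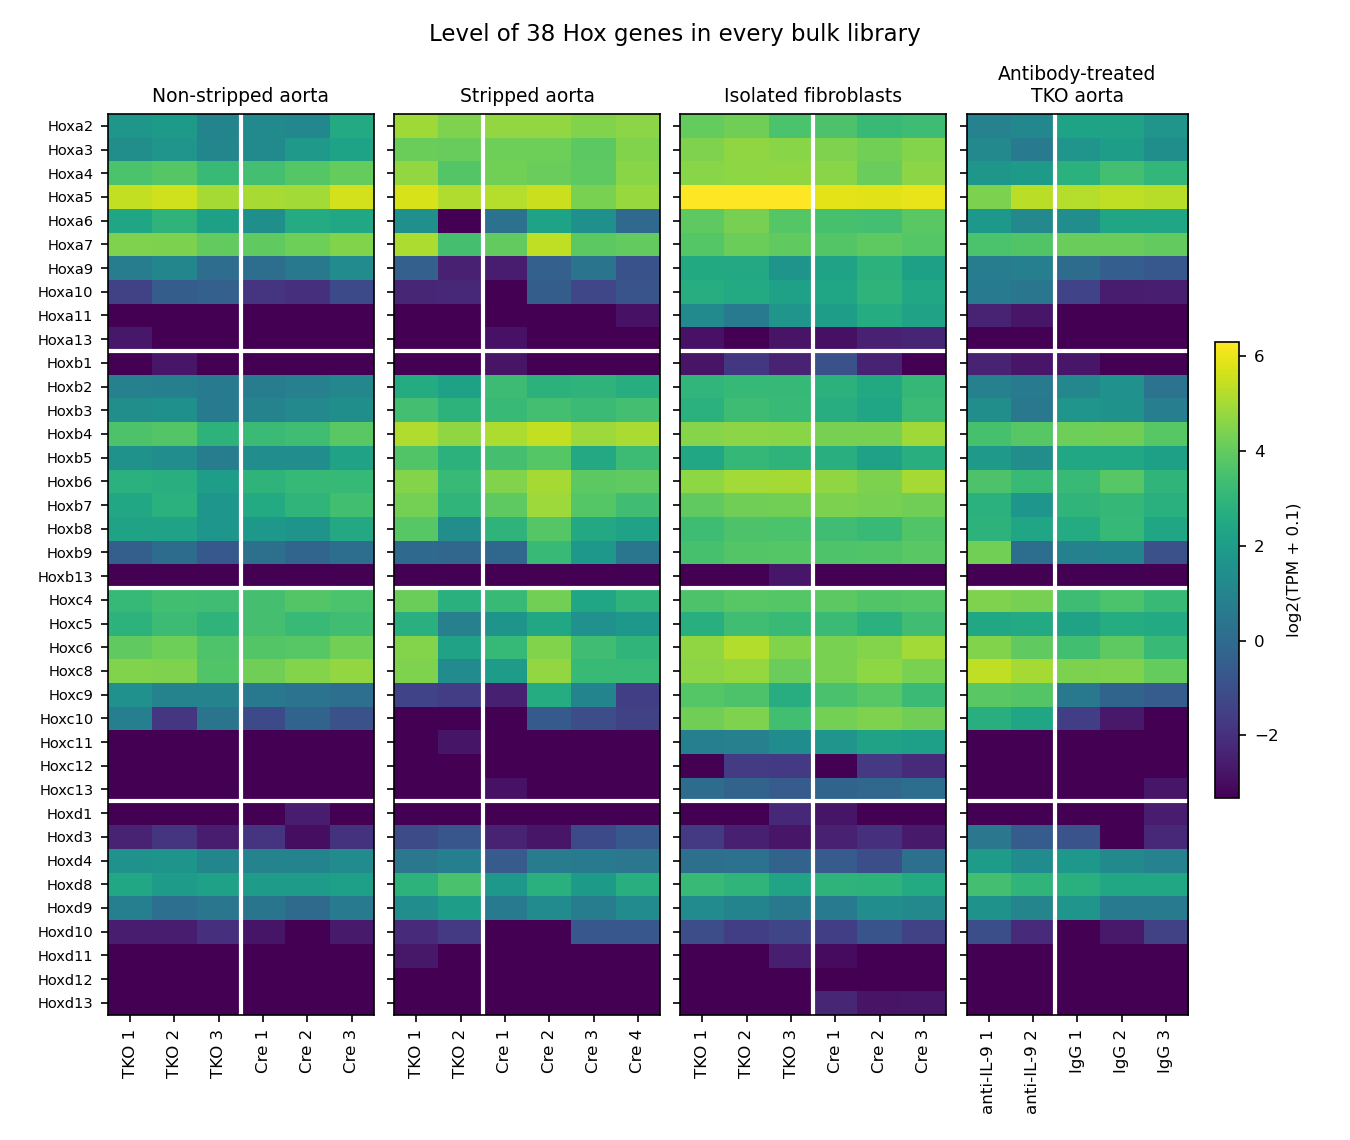
Level of 38 Hox genes (vertical axis, ordered by cluster and number) in every bulk library (horizontal axis), as log2(TPM + 0.1) in colour, with TKO left of Cre and anti-IL-9 left of IgG. The top of the scale is Hoxa5 in fibroblasts (mean 70.7 TPM), and posterior members take a larger share in fibroblasts (11.2% to 20.9%) than in stripped aorta (0.964% to 4.74%).

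Libraries of one group differed in Hox levels more than in most genes. The median within-group SD of log2(CPM + 0.5) was 0.472 over the tested members in stripped aorta, where all genes had 0.193, and 22 of 26 members lay above that median. It was 0.284 for the members and 0.174 for all genes in non-stripped aorta, and 0.236 and 0.151 in fibroblasts. Hoxc8, a gene of the thoracic level, shows the spread in stripped aorta, with 19.7 and 2.41 CPM in TKO, against 3.57, 23.6, 8.61 and 8.12 CPM in Cre. The high values fell in 1 library of each genotype. Hoxb9 and Hoxc9, also genes of the thoracic level, were highest in Cre replicates 2 and 3. Hoxb9 had 0.741 and 0.736 CPM in TKO, against 0.713, 7.25, 2.94 and 1.05 CPM in Cre, and Hoxc9 had 6 and 6 counts in TKO, against 2, 140, 45 and 7 counts in Cre, so both genotypes had libraries at the low level.

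The genotype comparison asked whether Hox levels differed between TKO and Cre mice within a tissue. No member passed an adjusted p of 0.05 by edgeR's quasi-likelihood test in any of the 3 tissues. In whole tissue, fewer cells of a type and less RNA per cell cannot be told apart. Of all genes tested, 0.119% passed in non-stripped aorta, 0.024% in stripped aorta and 0.0638% in fibroblasts, against 0 of the 25, 26 and 29 members that had enough counts to be tested. An unadjusted p under 0.05 was found for 4 members in non-stripped aorta (17.9% of all genes), 3 in stripped aorta (13.8% of all genes) and 5 in fibroblasts (12.1% of all genes). DESeq2 called 0 members in non-stripped aorta (5.24% of all genes with an adjusted p), 0 in stripped aorta (3.93%) and 3 in fibroblasts (2.85%), and by edgeR 0 passed in each of the 3 tissues whichever library was left out.

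In isolated fibroblasts the members with the smallest p included Hoxa5, Hoxc11 and Hoxa11. Hoxa5 had 1452, 1433 and 1382 counts in TKO, against 1286, 1049 and 937 in Cre. All 3 TKO libraries were above all 3 Cre libraries, and the log2 difference was 0.34 ± 0.07 (SE) with an adjusted p of 0.217 by edgeR and 0.0332 by DESeq2. Hoxc11, a gene of the lumbar and sacral level, had 34, 31 and 46 counts in TKO, against 71, 89 and 67 in Cre. The TKO libraries were all lower, at −1.09 ± 0.25 on the log2 scale, with an adjusted p of 0.226 by edgeR and 0.0327 by DESeq2. Hoxa11, known for its role in forelimb and uterus development, had 54, 29 and 66 counts in TKO, against 104, 134 and 83 in Cre. The groups did not overlap, and its log2 difference was −1.17 ± 0.31 with an adjusted p of 0.250 by edgeR and 0.0267 by DESeq2. Only 65.0% of the exonic bases of Hoxa11 are free of another gene, and the antisense transcript Hoxa11os shares the rest. The strand setting of the counting is not given, so reads of the 2 strands cannot be told apart there.

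Hoxa2 (0.50 ± 0.21, adjusted p = 0.398) and Hoxb7 (−0.28 ± 0.14, adjusted p = 0.463) were also among the 6 smallest p in fibroblasts. By position, the 5 tested anterior members had log2 differences above 0 with a median of 0.26, and the 9 tested posterior members below 0 with a median of −0.24, where all genes had a median of 0.01. With no filter on low counts, Hoxa11 (adjusted p = 0.0101) and Hoxc11 (adjusted p = 0.0203) passed edgeR's test. In all, 7 of the 29 tested members had genotypes that did not overlap, against 17.3% of all genes. Beside these values, the 7 tested macrophage markers had a median log2 difference of −0.90 in the same libraries, with summed CPM between 134 and 182 in TKO and between 220 and 502 in Cre. Neutrophil markers (8.68 to 17.3 CPM in TKO, 24.5 to 39.3 in Cre) were also lower in all TKO libraries. Cartilage and bone markers (42.8 to 47.2 CPM in TKO, 36.9 to 39.7 in Cre) were higher in all of them. The part of these cells in the Hox values was not tested.

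In non-stripped aorta Hoxb6 and Hoxc9 had the smallest p. Hoxb6 had 107, 107 and 59 counts in TKO, against 180, 140 and 148 in Cre, and the groups did not overlap. Its log2 difference was −0.58 ± 0.20 with an adjusted p of 0.181 by edgeR. Hoxc9 had 53, 38 and 34 counts in TKO, against 40, 24 and 22 in Cre, which is 2.66, 1.93 and 1.98 CPM in TKO and 1.55, 1.28 and 1.03 CPM in Cre. In CPM, all TKO libraries were higher, at 0.76 ± 0.26 on the log2 scale with an adjusted p of 0.184 by edgeR. Next were Hoxc4 (−0.37 ± 0.15, adjusted p = 0.248), Hoxc5 (−0.39 ± 0.17, adjusted p = 0.277), Hoxb7 (−0.67 ± 0.29, adjusted p = 0.280) and Hoxa3 (−0.49 ± 0.24, adjusted p = 0.328). All 8 tested HoxB members had log2 differences below 0, with a median of −0.35, and all genes had −0.02. Genotypes did not overlap for 3 of the 25 members, against 25.5% of all genes. Without TKO replicate 3, the library with no Klf10 count, the log2 difference was −0.40 ± 0.16 for Hoxb6 and 0.83 ± 0.30 for Hoxc9. Skeletal muscle markers differed in the same libraries, with summed CPM between 3486 and 13917 in TKO and between 326 and 1138 in Cre. Cardiac muscle markers (164 to 842 CPM in TKO, 9.07 to 70.1 in Cre) and sympathetic neuron markers (306 to 368 CPM in TKO, 249 to 264 in Cre) were also higher in all TKO libraries. Endothelial markers (667 to 772 CPM in TKO, 877 to 999.7 in Cre), smooth muscle markers (175 to 248 CPM in TKO, 340 to 577 in Cre), Schwann cell markers (152 to 173 CPM in TKO, 182 to 219 in Cre) and mesothelial markers (50.5 to 53.3 CPM in TKO, 56.2 to 74.7 in Cre) were lower in all of them. The part of these cells in the Hox values, those of HoxB included, was not tested.

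In stripped aorta the smallest p belonged to Hoxd8, a HoxD gene of the trunk, with 177 and 337 counts in TKO, against 98, 178, 97 and 214 in Cre. In CPM that was 6.56 and 11.3 CPM in TKO, against 3.04, 5.92, 3.40 and 5.77 CPM in Cre, without overlap, and the log2 difference was 0.98 ± 0.35 with an adjusted p of 0.301 by edgeR. Hoxd9, its neighbour on the tail side, had 48 and 93 counts in TKO, against 32, 49, 32 and 61 in Cre, a log2 difference of 0.86 ± 0.36 with an adjusted p of 0.361. In CPM its TKO libraries (1.78 and 3.11 CPM) lay above the Cre libraries (0.992, 1.63, 1.12 and 1.65 CPM). Hoxb2, a hindbrain gene, had 180 and 163 counts in TKO, against 347, 239, 253 and 260 in Cre, a log2 difference of −0.51 ± 0.22 with an adjusted p of 0.360, and all its TKO counts were below its Cre counts. Hoxb9 (−2.01 ± 0.97, adjusted p = 0.418), Hoxc9 (−2.91 ± 1.63, adjusted p = 0.476) and Hoxa5 (0.49 ± 0.28, adjusted p = 0.484) followed. The difference of Hoxb9 rested on Cre replicate 2, without which it was −1.08 ± 0.68. Genotypes did not overlap for 3 of the 26 members, against 23.6% of all genes. Markers of other cells stood apart in the same libraries. Adipocyte markers (1294 to 1547 CPM in TKO, 295 to 735 in Cre), Schwann cell markers (281 to 538 CPM in TKO, 109 to 261 in Cre) and proliferation markers (26.5 to 40.6 CPM in TKO, 15.4 to 20.7 in Cre) were higher in both TKO libraries. Mesothelial markers (23.7 to 27.3 CPM in TKO, 61.4 to 164 in Cre) and smooth muscle markers (3918 to 5913 CPM in TKO, 6487 to 7572 in Cre) were lower in both, and pericyte markers differed by less than 1 CPM between the nearest libraries. Their part in the Hox values was not tested.

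**Figure D2:**
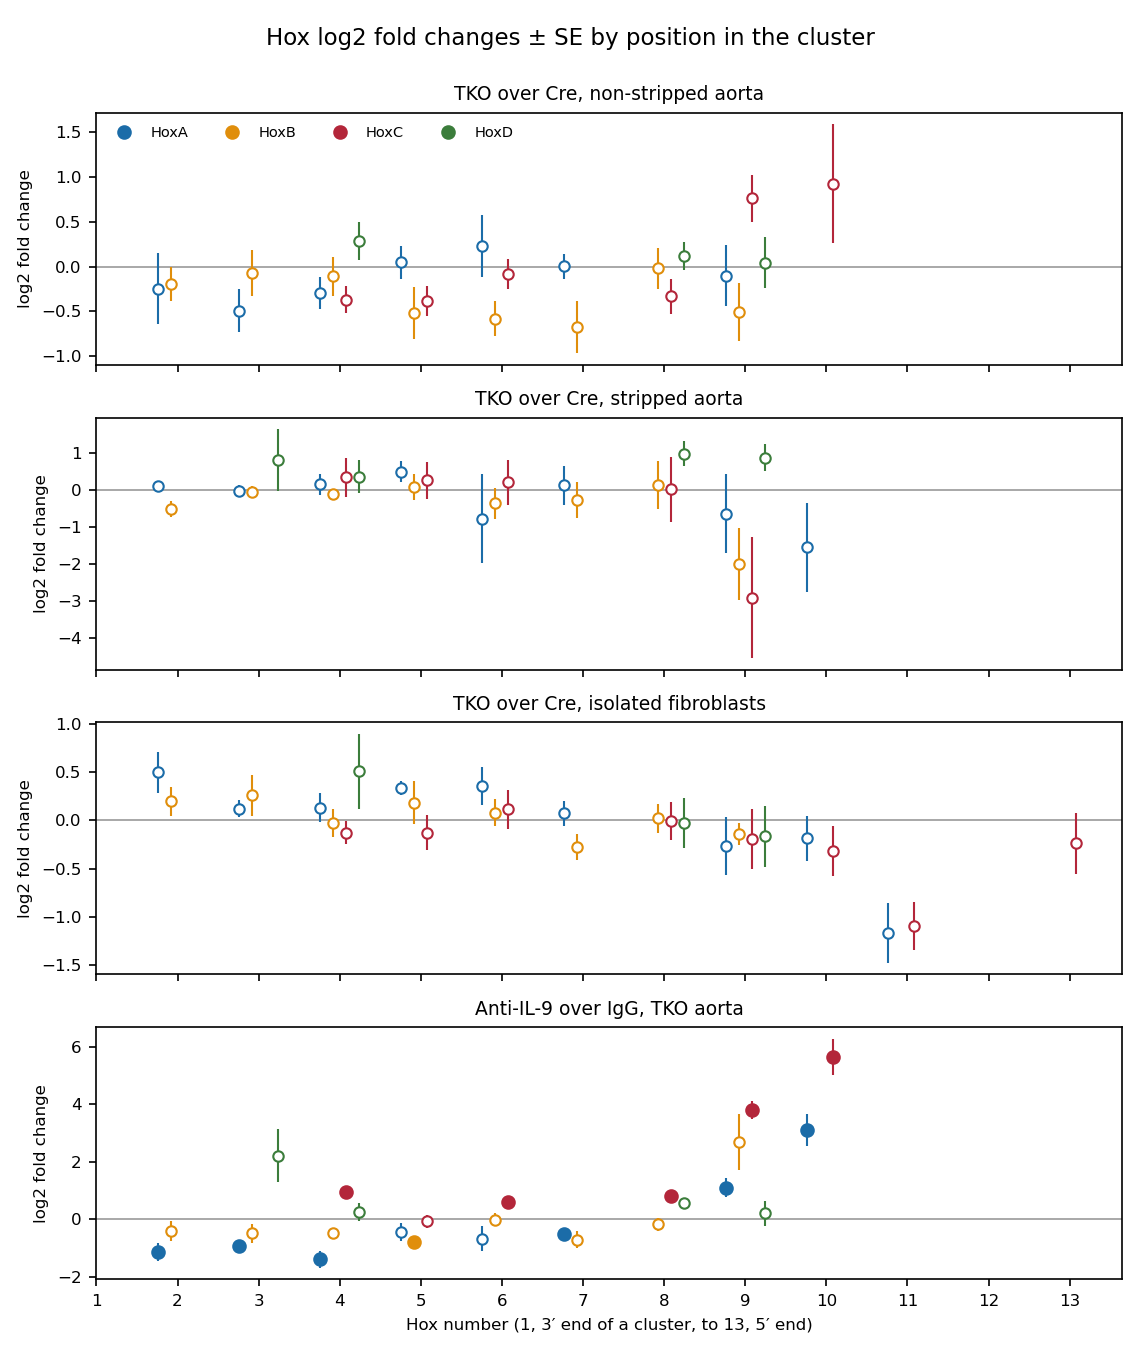
Log2 difference (vertical axis, with SE) of tested Hox genes against their number (horizontal axis, 1 to 13) in 4 panels, TKO over Cre in 3 tissues and anti-IL-9 over IgG in TKO aorta, coloured by cluster with filled points where the adjusted p was under 0.05. No point is filled in the genotype panels, and 12 are filled in the antibody panel, where the posterior members lie above 0.

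Whether the genotype effect differed between tissues was tested in 1 fit over the 18 libraries of the 3 tables, with 30 members tested in each contrast. Among them, Hoxa11, Hoxc11 and Hoxc13 had no count in any non-stripped library. Their genotype effect in that tissue is undefined, so they could not pass in the contrasts that involve it. By edgeR no member passed for non-stripped minus stripped aorta (2.53% of all genes did), non-stripped aorta minus fibroblasts (0.141%) or stripped aorta minus fibroblasts (0.2%). An unadjusted p under 0.05 was found for 3 members in the first contrast (19.8% of all genes), 1 in the second (12.9%) and 5 in the third (15.1%). DESeq2 called 1, 0 and 0 members, against 8.51%, 2.79% and 3.95% of all genes. The member it called was Hoxc10, a gene of the lumbar level. Hoxc10 had 25, 3 and 17 counts in TKO non-stripped aorta, against 8, 12 and 7 in Cre, and 0 and 0 counts in TKO stripped aorta, against 0, 10, 7 and 6 in Cre. At these low counts the libraries of each genotype overlapped in both tissues. By edgeR Hoxc10 passed this contrast without non-stripped TKO replicate 2, and Hoxa10 without stripped Cre replicate 1.

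The antibody comparison asked how aortas of TKO mice under Ang II differed after an antibody to IL-9. The members that rose in the 2 anti-IL-9 libraries over the 3 IgG libraries were HoxC genes and posterior HoxA genes, and those that fell were Hoxb5 and HoxA genes of lower number. Of 27 tested members, 7 rose and 5 fell by edgeR at an adjusted p of 0.05, which is 12 members (44.4%) where 32.1% of all genes passed (21% higher and 11% lower). The members' share lies above that of all genes, and no test of this excess was made. It includes Hoxc10 and Hoxa10, which rose, and Hoxd3, which did not pass. These members met the filter on low counts only with the help of the anti-IL-9 libraries, so the share describes these libraries only. The median log2 difference was −0.07 over the tested members and −0.01 over all genes. Groups did not overlap for 17 of the 27 members, against 59.8% of all genes, and 18 had an unadjusted p under 0.05, against 43.8% of all genes.

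Hoxc10 had 4.89 and 4.54 CPM in the anti-IL-9 libraries, against 0.212, 0.046 and 0 CPM in the IgG libraries. It was counted 122 and 83 times with anti-IL-9, against 4, 1 and 0 times with IgG, so the groups stood far apart. Its log2 difference was 5.64 ± 0.64 (adjusted p = 0.0008 by edgeR), and the ratio of the summed counts scaled by depth was 53.4, with a 95% exact interval from 22.5 to 166 that covers counting error only. Hoxc10 and Hoxa10 were so low with IgG that they entered the test through the anti-IL-9 libraries.

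Hoxc9 had 13.7 and 15.1 CPM with anti-IL-9, against 1.54, 0.788 and 0.752 CPM with IgG. Both anti-IL-9 libraries were far above all 3 IgG libraries, with a log2 difference of 3.80 ± 0.32 (adjusted p = 0.0002 by edgeR). Hoxa10, known for its role in uterus and lumbar development, had 1.80 and 1.97 CPM with anti-IL-9, against 0.424, 0.093 and 0.125 CPM with IgG, a log2 difference of 3.10 ± 0.57 (adjusted p = 0.0065 by edgeR). Hoxa9, known for its roles in blood and endothelial cells, had 3.41 and 4.48 CPM with anti-IL-9, against 2.44, 1.53 and 1.51 CPM with IgG. Its groups did not overlap, and the log2 difference was 1.10 ± 0.33 (adjusted p = 0.0404 by edgeR). The remaining posterior members tested, Hoxb9 and Hoxd9, did not pass.

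Hoxb9 differed between the 2 anti-IL-9 libraries. It had 482 and 23 counts with anti-IL-9, against 39, 46 and 9 counts with IgG, which is 19.3 and 1.26 CPM with anti-IL-9 and 2.07, 2.13 and 0.564 CPM with IgG. Only anti-IL-9 replicate 1 was high, the groups overlapped, and the adjusted p was 0.0771 by edgeR. Hoxa5 differed between the same 2 libraries the other way, with 15.5 and 35.1 CPM with anti-IL-9, against 31.5, 33.4 and 37.0 CPM with IgG, and did not pass.

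In the middle of HoxC the rises were smaller and the replicates closer. Hoxc8 had 46.1 and 43.4 CPM with anti-IL-9, against 26.7, 25.8 and 23.8 CPM with IgG, a log2 difference of 0.81 ± 0.11 (adjusted p = 0.0019 by edgeR). Hoxc4 had 21.6 and 24.5 CPM with anti-IL-9, against 11.5, 12.8 and 11.6 CPM with IgG, a log2 difference of 0.94 ± 0.13 (adjusted p = 0.0021 by edgeR). Both genes were higher in every anti-IL-9 library, and no other gene shares their exons. Hoxc6 had 20.9 and 17.9 CPM with anti-IL-9, against 11.3, 15.5 and 11.2 CPM with IgG, with a narrow gap between the groups and a log2 difference of 0.61 ± 0.19 (adjusted p = 0.0431 by edgeR).

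The 5 members that fell were 4 HoxA genes and Hoxb5. Hoxa4, a central member near the head end, had 2.04 and 2.79 CPM with anti-IL-9, against 5.04, 7.28 and 6.65 CPM with IgG, a log2 difference of −1.39 ± 0.28 (adjusted p = 0.0101 by edgeR). Hoxa2 had 1.28 and 1.80 CPM with anti-IL-9, against 3.82, 3.48 and 2.82 CPM with IgG, a log2 difference of −1.14 ± 0.31 (adjusted p = 0.0313). Hoxa3, which acts in pharyngeal arch and carotid body development, had 5.17 and 4.32 CPM with anti-IL-9, against 8.65, 10.2 and 8.21 CPM with IgG, a log2 difference of −0.92 ± 0.21 (adjusted p = 0.0143). For these 3 genes both anti-IL-9 libraries were below all IgG libraries. Hoxb5 had 3.85 and 3.50 CPM with anti-IL-9, against 6.53, 6.17 and 6.21 CPM with IgG, a log2 difference of −0.78 ± 0.21 (adjusted p = 0.0280). Hoxa7 had 13.3 and 17.5 CPM with anti-IL-9, against 22.3, 20.7 and 23.2 CPM with IgG, a log2 difference of −0.52 ± 0.16 (adjusted p = 0.0435). Other annotated genes share exons with Hoxa2, Hoxa3, Hoxa4 and Hoxa7, whose unshared exonic bases make up 85.0%, 72.9%, 84.0% and 79.6%. Hoxd8 (0.56 ± 0.19, adjusted p = 0.0618) lay just outside the threshold.

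By group, 4 of 6 tested posterior members rose and 0 fell (median log2 difference 2.89), 3 of 15 central members rose and 3 fell (median −0.17), and 0 of 6 anterior members rose and 2 fell (median −0.70). By cluster, 5 of 6 HoxC members rose and 0 fell (median 0.88), 2 of 9 HoxA members rose and 4 fell (median −0.67), 0 of 8 HoxB members rose and 1 fell (median −0.45), and 0 of 4 HoxD members passed (median 0.40). Members that passed the low-count filter through the anti-IL-9 libraries alone had to differ, so the posterior count and median describe these libraries only. Posterior members made up 19.2% and 11.6% of Hox TPM with anti-IL-9, against 4.17%, 2.34% and 2.05% with IgG. In anti-IL-9 replicate 1, Hoxb9 alone held 19.1 of 243 TPM, against 1.02 of 207 TPM in replicate 2. HoxC made up 45.9% and 44.1% with anti-IL-9, against 25.1%, 26.1% and 24.7% with IgG, without overlap. Summed Hox TPM was 225 ± 25.3 with anti-IL-9 (SD, n = 2) and 188 ± 23.0 with IgG (n = 3). The means differed by more than 1 SD, but the libraries overlapped (207 to 243 TPM with anti-IL-9, 165 to 211 TPM with IgG).

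The calls differed in how far they rested on single libraries. Hoxc9, which also met the low-count filter in the IgG libraries, passed under each of the 11 settings run, which comprised other scaling, tool, filter and fit choices and each library left out in turn. Hoxc10 and Hoxa10 passed under them too, which is a description only, since they entered the test through the anti-IL-9 libraries. Without anti-IL-9 replicate 1, or without IgG replicate 3, 7 members passed instead of 12, and without IgG replicate 2 it was 8. Hoxa4 was lost without anti-IL-9 replicate 1 (adjusted p = 0.0554) and Hoxa3 without anti-IL-9 replicate 2 (adjusted p = 0.0550). Hoxb5 was lost whichever library was left out, and Hoxa2 and Hoxa7 without IgG replicate 1, 2 or 3 and without anti-IL-9 replicate 1. Hoxa9 was lost without IgG replicate 2 or 3 and without either anti-IL-9 library, and Hoxc6 without IgG replicate 1 or 3 and without either anti-IL-9 library. In 1 fit over all bulk libraries Hoxc8 (adjusted p = 0.313) and Hoxc4 (adjusted p = 0.0509) were lost, as were Hoxa7, Hoxa9, Hoxb5 and Hoxc6.

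Markers of other cells moved with the Hox genes in the antibody experiment, and their part in the Hox differences was not tested. All 7 tested sympathetic neuron markers rose, with summed CPM between 3187 and 3357 with anti-IL-9 and between 214 and 476 with IgG. Skeletal muscle markers rose for 6 of 7 (175 to 236 CPM with anti-IL-9, 9.32 to 41.7 CPM with IgG), Schwann cell markers for 5 of 6 (507 to 531 CPM with anti-IL-9, 174 to 199 CPM with IgG) and smooth muscle markers for 6 of 7 (1375 to 1397 CPM with anti-IL-9, 446 to 766 CPM with IgG). Mesothelial markers fell for 6 of 6 (4.26 to 7.01 CPM with anti-IL-9, 133 to 305 CPM with IgG), fibroblast markers for 7 of 8 (1826 to 2327 CPM with anti-IL-9, 4273 to 8475 CPM with IgG) and endothelial markers for 7 of 8 (458 to 553 CPM with anti-IL-9, 940 to 1127 CPM with IgG). Klf10 had 584 and 381 counts with anti-IL-9, against 749, 1022 and 454 with IgG.

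Some genes that work with or around the Hox code also passed in the same comparison, where 32.1% of all genes did (21% higher and 11% lower). No list of this or the next paragraph was tested for a difference from that share. Of the 9 tested partner genes, which encode homeodomain cofactors of Hox proteins, 3 rose and 0 fell by the same test, with a median log2 difference of 0.40. They included Meis3 (1.57 ± 0.18) and Meis1 (1.13 ± 0.18). Meis1 averaged 27.4 ± 4.46 CPM with anti-IL-9 (SD, n = 2) and 12.5 ± 2.05 CPM with IgG (n = 3). Of 16 genes of retinoic acid, the signal that switches on anterior Hox genes in the embryo, 1 rose (Crabp1, a retinoic acid binding protein, 3.96 ± 0.56) and 2 fell (Dhrs3, a retinaldehyde reductase, −0.83 ± 0.19, and Rxra, a nuclear receptor, −0.59 ± 0.13), with a median of −0.40. Of 27 Polycomb and trithorax genes, which keep Hox genes silent or active, 4 rose and 1 fell with a median of 0.21, among them Cbx6 (1.72 ± 0.18), a Polycomb subunit, and Kmt2a (0.75 ± 0.12), a trithorax methyltransferase that maintains Hox expression, both higher, and Bmi1 (−0.46 ± 0.12), a Polycomb subunit, lower.

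Of the 3 tested axial regulators, Lin28b (3.89 ± 0.55) and Gdf11 (1.09 ± 0.32), a secreted factor that promotes posterior Hox genes in the embryo, rose. Transcripts and neighbours of the clusters split by cluster, with 2 of 11 rising, both in HoxD (Haglr, 2.96 ± 0.52, and Hoxd3os1, 2.06 ± 0.38), and 4 falling, all in or beside HoxA (Hoxaas2, −1.34 ± 0.42; Hoxaas3, −1.17 ± 0.37; Hotairm1, −0.87 ± 0.23; Skap2, −0.69 ± 0.15). Of 31 other transcription factors of body regions, 9 rose and 8 fell. The rises included Hand2 (3.69 ± 0.34) and Isl1 (3.49 ± 0.32), which also act in sympathetic neurons, and the falls included Wt1 (−3.61 ± 0.49), which also marks mesothelium. In the genotype comparisons the medians of these 6 lists lay between −0.26 and 0.34.

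In single cells, clusters were formed without the Hox genes and named from marker genes, so that Hox levels took no part in the classes. UMI counts from the 3′ end carry no length scaling, so levels are compared between classes for one gene and as shares. Totals over the 39 members were highest in lymphatic endothelial-like cells (541 CPM, here a gene's UMIs scaled to all UMIs of the class), pericyte-like cells (457), fibroblast-like cells (362), endothelial-like cells (361), smooth muscle-like cells (311) and mesothelial-like cells (263). They were 43.8 in macrophage-like cells, 42.2 in T-like cells, 29.1 in B-like cells and 28.7 in monocyte-like cells. By library the total was 379 and 320 in TKO and 376 and 225 in Cre for fibroblast-like cells, 333 and 306 in TKO and 413 and 242 in Cre for endothelial-like cells, and 494 and 583 in TKO and 600 and 445 in Cre for lymphatic endothelial-like cells. The ranges of fibroblast-like and endothelial-like cells overlapped, and every library's lymphatic value was above its fibroblast value. Leading genes of the mesothelial-like cluster included Svs5, Svs4 and Svs2, which are genes of the seminal vesicle, and those of the Schwann-like cluster included the pancreatic genes Prss2, Cpb1 and Try5.

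The clusters of Hox genes were used unequally by the classes. HoxC took 32.1% of Hox UMIs in fibroblast-like cells, where the libraries had 33.3% and 34.6% in TKO and 30.9% and 32.0% in Cre, 42.2% in pericyte-like, 22.5% in smooth muscle-like, 6.16% in endothelial-like and 2.22% in lymphatic endothelial-like cells. HoxD took 50.6% in lymphatic endothelial-like cells, with 47.3% and 52.9% in TKO and 51.3% and 57.7% in Cre, against 10.4% in endothelial-like, 2.08% in fibroblast-like and 1.81% in smooth muscle-like cells. In endothelial-like cells the HoxC share was 9.63% and 7.88% in TKO and 3.35% and 9.09% in Cre, below that of fibroblast-like cells in every library. Posterior members took 23.2% in smooth muscle-like cells, 24.9% in lymphatic endothelial-like, 15.9% in endothelial-like, 10.8% in fibroblast-like and 0.578% in mesothelial-like cells.

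**Figure D3:**
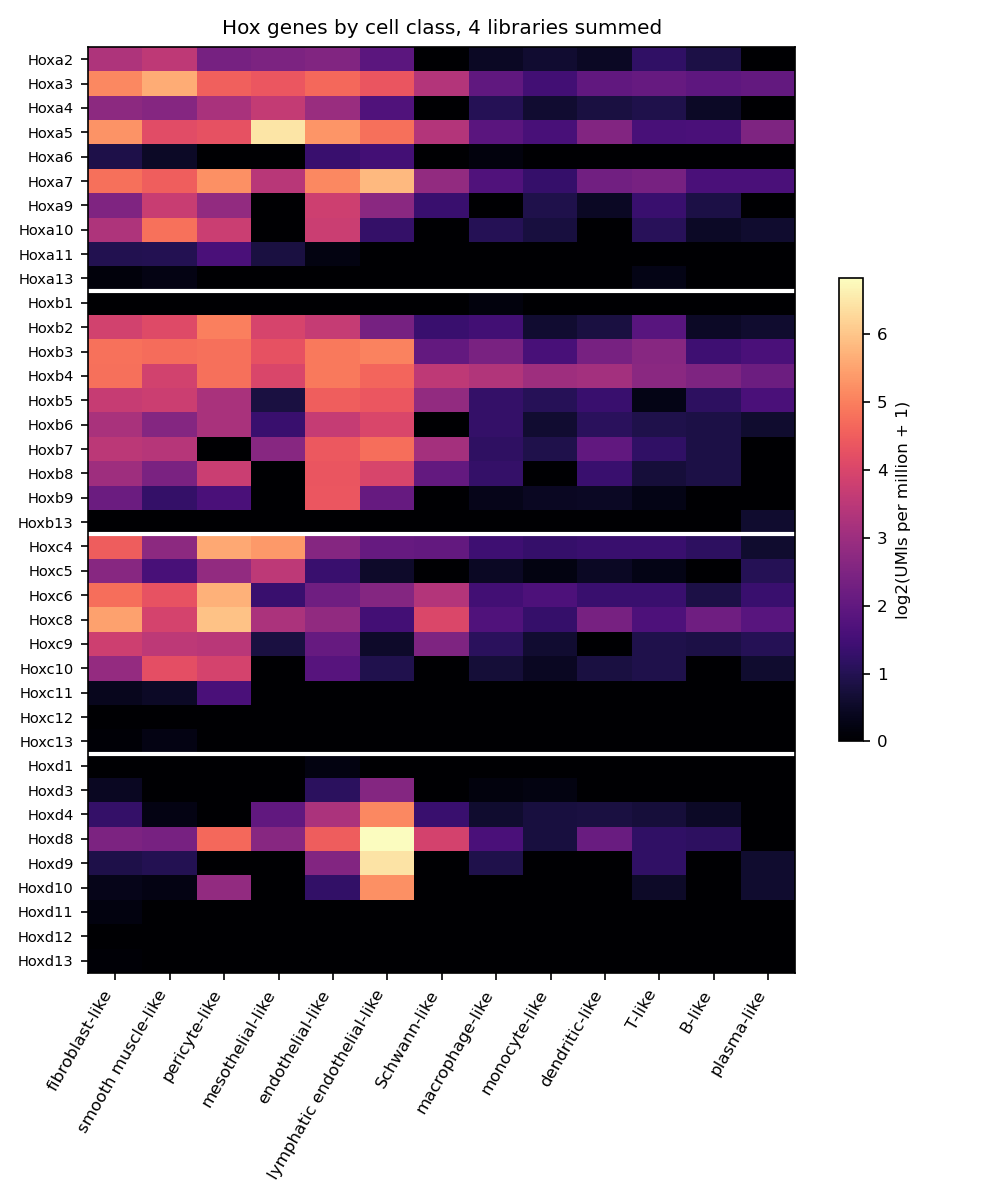
Level of 38 Hox genes (vertical axis) in 13 cell classes (horizontal axis), as log2(CPM + 1) in colour, with the 4 libraries summed. HoxD fills the lymphatic endothelial-like column (50.6% of its Hox UMIs), HoxC is nearly empty in the endothelial-like columns (6.16% and 2.22%), and immune classes are pale in all clusters.

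In lymphatic endothelial-like cells Hoxd8, reported to act in lymphatic vessel formation, had 94.0 and 122.5 CPM in TKO and 123.6 and 124.2 in Cre. Hoxd9 had 78.3 and 88.7 in TKO and 91.3 and 94.2 in Cre, and Hoxd10 had 33.8 and 54.9 in TKO and 38.1 and 21.4 in Cre. In fibroblast-like cells Hoxd8 stayed between 0.89 and 5.27 in all libraries, so the classes did not overlap. Pericyte-like cells, a class of 213 cells, had their highest values for Hoxc8 (61.4), Hoxc6 (51.2) and Hoxc4 (47.1), and mesothelial-like cells for Hoxa5 (86.8) and Hoxc4 (40.3). The highest member in macrophage-like cells was Hoxb4 with 9.11 CPM, and RNA free in the droplets can give such counts.

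Fibroblast-like cells were compared with other classes within the same 4 libraries, with library as a block. Against smooth muscle-like cells, 4 of 16 tested members were higher and 3 lower by edgeR, where 30.8% of all genes passed (17.8% higher and 13% lower). Hoxc8 had 52.3 and 42.9 CPM in fibroblast-like cells of TKO and 40.9 and 26.7 in those of Cre, against 17.4 and 9.05 in smooth muscle-like cells of TKO and 14.4 and 5.93 in those of Cre. It was higher in fibroblast-like cells of every library, at 1.57 ± 0.22 on the log2 scale (adjusted p = 0.0001). Hoxa10 went the other way, with 9.89 and 9.10 CPM in fibroblast-like cells of TKO and 8.78 and 2.67 in those of Cre, against 50.7 and 27.2 in smooth muscle-like cells of TKO and 23.5 and 17.8 in those of Cre. It was lower in fibroblast-like cells of every library (−1.84 ± 0.26, adjusted p = 0.0002), as were Hoxc10 (−1.64 ± 0.27, adjusted p = 0.0005) and Hoxa9 (−1.51 ± 0.33, adjusted p = 0.0036).

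Hoxc4 (1.66 ± 0.46, adjusted p = 0.0162), Hoxa5 (0.98 ± 0.22, adjusted p = 0.0043) and Hoxb4 (0.91 ± 0.26, adjusted p = 0.0183) were also higher in fibroblast-like cells. These 3 calls rested on Cre replicate 1, which held 890 of the 1433 smooth muscle-like cells, and without it 3 of 12 tested members passed (Hoxc8, Hoxa10 and Hoxc10), while Hoxa9 no longer met the filter on low counts. Hoxb4 was also lost without TKO replicate 1. The median log2 difference was 0.08 over the tested members and 0.09 over all genes. By position, the 3 lower members were posterior and the 4 higher members central. The 3 lower members met the low-count filter through smooth muscle-like cells alone and Hoxc4 through fibroblast-like cells alone, so these 4 calls describe those levels.

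Against endothelial-like cells, 7 of 20 tested members were higher and 5 lower by edgeR, where 35.6% of all genes passed (18.4% higher and 17.2% lower). All 5 tested HoxC members were higher in fibroblast-like cells. None of them met the low-count filter in endothelial-like cells alone. Hoxc10 met it only with both classes together and the others through fibroblast-like cells alone, so this count mainly describes their fibroblast level. Hoxc6 had 28.3 and 22.1 CPM in fibroblast-like cells of TKO and 26.8 and 13.4 in those of Cre, against 5.50 and 4.52 in endothelial-like cells of TKO and 2.62 and 0 in those of Cre. The classes did not overlap, and the log2 difference was 2.88 ± 0.29 (adjusted p = 0.00015). Hoxc8 (3.03 ± 0.37, adjusted p = 0.0004), Hoxc9 (2.14 ± 0.32, adjusted p = 0.0010), Hoxc4 (2.07 ± 0.37, adjusted p = 0.0027) and Hoxc10 (1.35 ± 0.38, adjusted p = 0.0255) were the others, and Hoxa2 (0.97 ± 0.27, adjusted p = 0.0252) and Hoxa3 (0.65 ± 0.18, adjusted p = 0.0206) were also higher. Hoxa2 too met the filter through fibroblast-like cells alone, so its call describes that level, whereas Hoxa3 met it in either class. Hoxc10, Hoxa2 and Hoxa3 did not pass without single libraries, Hoxc10 without Cre replicate 1 or TKO replicate 2, Hoxa2 without Cre replicate 1, TKO replicate 1 or TKO replicate 2, and Hoxa3 without Cre replicate 2 or TKO replicate 1.

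The 5 members that were lower in fibroblast-like than in endothelial-like cells were led by Hoxd8. It had 5.27 and 4.77 CPM in fibroblast-like cells of TKO and 4.34 and 0.89 in those of Cre, against 16.9 and 13.6 in endothelial-like cells of TKO and 28.0 and 12.6 in those of Cre. All fibroblast values were below all endothelial values (−2.07 ± 0.30, adjusted p = 0.0009). Hoxb8 (−1.35 ± 0.29, adjusted p = 0.0071), Hoxa9 (−1.24 ± 0.34, adjusted p = 0.0212), Hoxb5 (−0.89 ± 0.21, adjusted p = 0.0106) and Hoxb7 (−0.85 ± 0.23, adjusted p = 0.0220) followed. Hoxb7 was lost without Cre replicate 1, Cre replicate 2 or TKO replicate 2, and the count without Cre replicate 1 was 8. These 5 members met the low-count filter through endothelial-like cells alone. The median log2 difference was −0.03 over the members and 0.02 over all genes.

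Against macrophage-like cells, 11 of 11 tested members were higher in fibroblast-like cells by edgeR, where 50.8% of all genes passed (26.2% higher), between 1.41 for Hoxb4 and 4.33 for Hoxc8 on the log2 scale. Apart from Hoxb4, these members met the low-count filter through their fibroblast level alone, so the count is a description of it. More members met the filter when a library was left out, and 19 of 21 were called without Cre replicate 2 and 18 of 18 without TKO replicate 2. A cluster of 1814 cells, 1726 of them from Cre replicate 1, had leading genes that included Cd163 and Folr2. Its best marker list was that of macrophages, but 1 neutrophil marker among its leading genes left it unnamed. It was therefore not part of the macrophage-like class in the main classes.

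**Figure D4:**
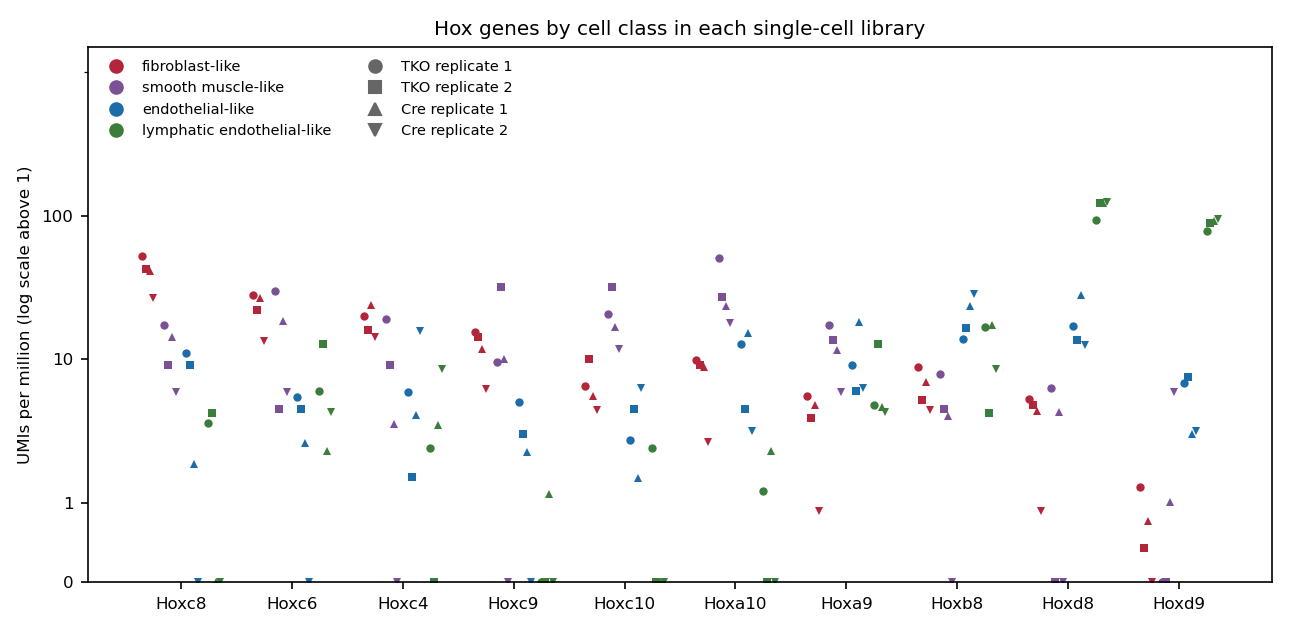
CPM (vertical axis, logarithmic above 1) of 10 Hox genes in 4 cell classes, 1 point per library, with TKO and Cre libraries marked. Hoxa10 is higher in smooth muscle-like (17.8 to 50.7) than in fibroblast-like cells (2.67 to 9.89), and Hoxd8 higher in lymphatic endothelial-like cells (94.0 to 124.2) than in the other 3 classes.

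Within a class, clusters differed too, as a description without a test. Among the 5 clusters of fibroblast-like cells, a cluster of 480 cells led by Mmp3 and Sfrp4 had 615 CPM of Hox UMIs, where the other 4 had between 321 and 414. Its Hoxc8 reached 155.7 CPM (163 and 130.0 in TKO, 131 and 0 in Cre, where the last library had only 3 of its cells), against 30.2 to 44.7 in the other 4 clusters. HoxC took 53.5% and posterior members 20.9% of its Hox UMIs, against 25.7% to 32.6% and 8.89% to 11.6% in the others. It held 380 and 67 cells of TKO and 30 and 3 of Cre. A pair of other fibroblast-like clusters came mostly from Cre replicate 1 (1171 of 1478 and 1089 of 1319 cells).

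Endothelial-like clusters differed by position as well. A cluster of 672 cells led by Cytl1, Bmp4, Vwf and Gja5, the last a gap junction gene of arterial endothelium, had 539 CPM of Hox UMIs, with Hoxb9 at 51.6, Hoxa9 at 36.8 and Hoxa10 at 33.7. Posterior members took 24.4% of its Hox UMIs. A cluster of 1494 cells led by Gpihbp1 and Flt1, genes of capillary endothelium, had 246 CPM, with Hoxa7 at 32.4 and Hoxb4 at 27.9, and a posterior share of 7.07%. Another endothelial-like cluster, of 309 cells, whose leading genes also included Gpihbp1 and Flt1, lay between them with 440 CPM and a posterior share of 10.2%. An unnamed cluster of 1187 cells led by Thbs4, Fmod and Tnmd, which are genes of tendon-like connective tissue, had 499 CPM, with Hoxa5 at 74.0 and Hoxc8 at 68.3, and held 842 and 278 cells of TKO and 44 and 23 of Cre. Its best marker list was that of fibroblasts, but 1 cartilage and bone marker among its leading genes left it unnamed. It was therefore not part of the fibroblast-like class in any comparison of the main classes.

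TKO was compared with Cre on counts summed per library within each class that had enough cells in all 4 libraries. Hox members could be tested in 6 of 13 classes, as 57 pairs of gene and class, and 0 passed by edgeR. DESeq2 called 0 as well. In simulated sums of fibroblast-like cells, 10 of 100 changes of 1 on the log2 scale were recovered, and 83 of 100 changes of 2. Most changes of 1 could thus be missed, and 0 calls do not show equal levels. Of all genes, 0% passed in fibroblast-like cells (22 members tested), 0.00976% in endothelial-like (17 members), 0.0428% in lymphatic endothelial-like (11), 0.0341% in smooth muscle-like (5), 0% in macrophage-like and 0.0276% in mesothelial-like cells (1 each). The only pair at an unadjusted p under 0.05 was Hoxc8 in endothelial-like cells, with 10.99 and 9.05 CPM in TKO, against 1.87 and 0 in Cre (log2 difference 2.60 ± 0.72, adjusted p = 0.635 by edgeR). Both TKO libraries were above both Cre libraries, at low counts.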

How the data were processed

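The authors deposited raw read counts per gene symbol for each bulk library and UMI counts per gene and cell barcode for each single-cell library. Per the submitters' processing notes, GRCm38, Trimmomatic 0.36, STAR 2.5.2b, Subread 1.5.2 and featureCounts were used, and Cell Ranger 6.0.0 made the matrices, per the file headers. No source used here gives the strand setting. A count without a gene name made up at most 0.0025% of a library and was left out, and 1 column that matched no sample was not used. The smallest chi-square per degree of freedom among 23 replicate pairs was 13.3, so no library was taken as a repeat of another.

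The members and all gene and marker lists were chosen with earlier results of these data known. Bulk tables were tested separately in edgeR 4.0.16 (R 4.3.3), by filterByExpr with a minimum count of 10, TMM scaling and the quasi-likelihood test, with p-values adjusted by Benjamini and Hochberg's method over all genes tested and a threshold of 0.05. The SE is the log2 difference divided by the root of F. CPM were computed on TMM library sizes from the deposited counts, and TPM with GENCODE vM21 exon lengths, which 91.8% of the symbols had. DESeq2 1.42.0 was an alternative.

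Cells with at least 500 genes, at least 1000 UMIs and at most 10% mitochondrial UMIs were kept, and Scrublet marked at most 0.192%, so the highest 6% of its scores per library were removed. Clusters (29, Leiden at resolution 1, scanpy 1.11.5, 2000 variable genes without Hox genes, 30 components) were named from marker lists. Libraries shared between 4 and 42 barcodes, at most 0.381% of the smaller library. The statistics were tested on simulated data with changes of 1 or 2 on the log2 scale, 100 genes each. Of changes of 1, the bulk tests recovered 89 (non-stripped aorta), 67 (stripped aorta), 88 (fibroblasts) and 73 (antibody experiment). The changed genes of these bulk simulations were drawn from those above a floor of mean counts, with the spread of the trend over genes. Several tested members lay below that floor, and most varied more than the median gene. Recovery of changes in such members was therefore not measured. Tests on class sums recovered 81 for fibroblast-like against smooth muscle-like cells and 10 for TKO against Cre in fibroblast-like cells. Full values are given for members past the threshold, up to 6 with the smallest p per bulk comparison, the 3 of highest TPM, and the highest-numbered member of each cluster with at least 1 CPM. Values of some genes that this rule names are not reported here. Intervals cover counting error only.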

Additional observations from a re-analysis of the deposited data

Results flagged for a closer look

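Hoxa7 in stripped aorta of Cre mice had 37.4 CPM in replicate 2, far from the other 3 Cre libraries, whose values lay between 14.2 and 14.8 CPM. The gap to the nearest library made up 0.975 of the range of the group. TKO replicate 1 was also high, at 32.7 CPM, where TKO replicate 2 had 11.3 CPM. It was the only such library among the 26 groups of values examined, and chance marks about 1 group in 20.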

How the results depend on the processing

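No result changed sign under any alternative run. In isolated fibroblasts the genotype comparison had 0 members past the threshold, 3 with DESeq2 and 2 with no low-count filter. The non-stripped minus stripped contrast had 0, and 1 with DESeq2, 1 with no filter, and 0 to 1 with each library left out. The antibody comparison had 12, 7 to 11 with each library left out, 17 with no filter and 8 in 1 fit over all bulk libraries, the last of which shares 1 estimate of the spread. Fibroblast-like against smooth muscle-like cells gave 7, and 3 to 8 with each library left out. Fibroblast-like against macrophage-like cells gave 11, 21 with no filter, 19 with wider cell filters, 11 to 19 with each library left out and, in choices made after seeing the data, 18 with classes set by markers alone and 17 at another clustering resolution, where the erythrocyte-like and monocyte-like classes could not be fitted for TKO against Cre. Where that count was above 11, more members met the filter on low counts. The HoxC share in endothelial-like cells was 9.24% without Cre replicate 1, against 6.16%. For the other changes the cause was not tested. With the replicate number of the single-cell titles as a block, the genotype comparison in class sums again had 0. The correlations of same-numbered libraries lay between 0.0086 and 0.294, over only 2 pairs, so the numbers were not taken as pairing. Of the other values, 647 kept their direction and side of the threshold, 55 fell below it and 5 rose above it. Counts of 10 or fewer per library limit what can be said of the posterior members.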
